A study of Sus scrofa with 6 samples.

Results

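Among 453 porcine miRNAs of the deposited table, 25 conserved miRNAs were listed at 0 in every one of the 6 libraries of small extracellular vesicles (s-EVs) from follicular fluid. These 25 were chosen by their values: a miRNA was taken when it was listed at 0 in all 6 libraries and when the number in its name was below 4000. Low numbers were given early in the miRNA registry, mostly to miRNAs shared by many mammals, and the number serves here only as a stand-in for conservation. Since the zeros chose the members, their absence is a description and carries no test. Of the 320 miRNAs numbered below 4000, 25 (7.81%) were at 0 throughout, 26 were above 0 with a mean of at most 1 CPM in both groups, and 269 were expressed, meaning a mean above 1 CPM in at least one group. None of the 10 let-7 miRNAs was at 0 throughout.

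The s-EVs came from follicular fluid of ovaries of prepubertal gilts (Landrace × Large White) collected at a slaughterhouse. The 3 HQ (high quality) libraries were made from fluid of follicles with an oocyte that lissamine green B, which stains cells with a leaky membrane, left uncoloured, and the 3 LQ (low quality) libraries from fluid of follicles with a coloured oocyte. Fluid was pooled within each replicate, and neither the number of gilts nor that of follicles in a pool is given in the sources used here, so the spread between replicates is that between pools. In both groups the vesicles were isolated with the Exo-spin kit and the libraries were made with the QIAseq miRNA kit.

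Values are TMM-adjusted CPM, that is, reads scaled to one library size after the authors' trimmed-mean correction for composition. Values within a library were whole multiples of one step. If this step is taken as 1 read, the libraries held 1643814 to 2057437 miRNA reads in HQ and 898530 to 3159116 in LQ, or 12124117 in all. A count of 0 in one library then allows up to 3 reads, which corresponds to 1.33 to 1.71 CPM in HQ, against 1.02 to 3.68 CPM in LQ, and a count of 0 over all 6 libraries allows up to 0.247 CPM of the pooled reads, without TMM adjustment. These limits cover counting error only, are not hard maxima, and rest on the step being 1 read. The number of miRNAs below 4000 listed at 0 was 45, 50 and 48 in HQ replicates 1 to 3, against 63, 40 and 39 in LQ replicates 1 to 3, with the most zeros in LQ replicate 1, the shallowest library, and the fewest in LQ replicate 3, the deepest. Fluid with fewer vesicles of a given origin and vesicles that carry less of a miRNA cannot be told apart in such data. The gonadal miR-202-5p, the check of the tissue, was at 71448 ± 28109 CPM in HQ, against 70526 ± 8245 CPM in LQ (SD, n = 3 each).

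A miRNA is cut from one side, or arm, of a hairpin precursor. The enzymes Drosha and Dicer release a short duplex of the 5p and the 3p strand, an Argonaute protein keeps one of them, and the other strand is usually degraded. The kept strand finds its target mRNAs mainly through its seed, bases 2 to 8 from the 5′ end, so that miRNAs with one seed form a family. Some families are known for one tissue or for early embryos, others come from large imprinted or X-linked clusters.

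Most of the 25 members were not main strands of tissue-specific or embryonic families. The largest group was the second arms of hairpins whose other arm was present: 15 members are named by their arm (6 of the 5p and 9 of the 3p side), and for all 15 the other arm was above 0. These are miR-130b-5p, miR-221-5p, miR-24-2-5p, miR-381-5p, miR-582-5p, miR-92b-5p, miR-1296-3p, miR-146a-3p, miR-155-3p, miR-1839-3p, miR-194a-3p, miR-194b-3p, miR-218-3p, miR-432-3p and miR-499-3p. The other 10 members, named without an arm, are miR-105-1, miR-105-2, miR-1224, miR-325, miR-376b, miR-411, miR-450a, miR-452, miR-484 and miR-494. An arm was thus named for 60.0% of the members, beside 54.6% (161 of 295) of the other miRNAs below 4000. A strand at 0 beside a present one is the second arm by construction. A relative above 0 (the other arm, a shared seed or the same family name) was in the table for 17 members. None was found for 8, namely miR-105-1, miR-105-2, miR-1224, miR-325, miR-411, miR-452, miR-484 and miR-494. Seeds were compared only between annotated mature sequences, which miR-411, miR-484 and miR-494 lacked.

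The sequences of 6 arm pairs are shown because they place the strand at 0 beside the strand that was present, with the seed in capitals. They are RefSeq annotations of Sscrofa11.1, written 5′ to 3′.
miR-146a-3p, at 0: cCUGUGAAguuuaguucuucag
miR-146a-5p, present: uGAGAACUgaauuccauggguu
miR-24-2-5p, at 0: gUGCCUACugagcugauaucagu
miR-24-3p, present: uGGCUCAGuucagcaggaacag
miR-221-5p, at 0: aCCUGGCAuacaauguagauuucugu
miR-221-3p, present: aGCUACAUugucugcuggguuu
miR-218-3p, at 0: aUGGUUCUgucaagcaccaug
miR-218-5p, present: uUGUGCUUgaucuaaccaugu
miR-499-3p, at 0: aACAUCACagcaagucugugcu
miR-499-5p, present: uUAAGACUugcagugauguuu
miR-155-3p, at 0: uCCUACAUguuagcauuaaca
miR-155-5p, present: uUAAUGCUaauugugauagggg
In each pair the strand at 0 has a different seed from its partner, and 5 of the 6 strands at 0 begin with a base other than U, miR-155-3p being the exception.

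The 6 strands lie at chr16:63044271-63044292 on the minus strand (miR-146a-3p), chr10:27079461-27079483 on the minus strand (miR-24-2-5p), chrX:40571109-40571134 on the minus strand (miR-221-5p), chr8:15047655-15047675 on the plus strand (miR-218-3p), chr17:38374169-38374190 on the plus strand (miR-499-3p) and chr13:189138872-189138892 on the plus strand (miR-155-3p). miR-24-2-5p is in an intron of C10H9orf3, miR-218-3p in an intron of SLIT2, which encodes a guidance ligand, and miR-499-3p in an intron of the muscle myosin gene MYH7B. The miR-146a, miR-221 and miR-155 strands lie in no annotated protein-coding gene. A mature sequence was annotated for 18 of the 25 members, and miR-130b-5p, miR-194a-3p and miR-582-5p were matched by their hairpin only. No match was found for miR-376b, miR-411, miR-484 and miR-494.

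A second set is shown because these members have a close relative in the table, or one another. The miR-105 pair, in an intron of GABRA3 at chrX:123628430-123628449 and chrX:123630547-123630566 on the minus strand, has one seed, and both copies were at 0. miR-450a, at chrX:110381803-110381824 on the minus strand, is 1 base change from miR-450c-5p and shares its seed, and is 4 changes from miR-450b-5p, whose seed differs. miR-24-2-5p is 3 changes from miR-24-1-5p, the 5p strand of the other hairpin that gives miR-24-3p, and has the same seed.
miR-105-1, at 0: uCAAAUGCucagacuccugu
miR-105-2, at 0: uCAAAUGCucagacuccuug
miR-450a, at 0: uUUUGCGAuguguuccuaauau
miR-450c-5p, almost at 0: uUUUGCGAuguguuccuaauac
miR-450b-5p, present: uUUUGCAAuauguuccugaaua
miR-24-1-5p, almost at 0: gUGCCUACugagcugaaacacagu
miR-9843-3p, present, with the seed of miR-146a-3p: uCUGUGAAcuagaaaccucugg
The rows called almost at 0 held 1 implied read in all 6 libraries (miR-450c-5p, in HQ replicate 2) and 2 implied reads (miR-24-1-5p, in LQ replicate 2). Reads of strands as close as miR-450a and miR-450c-5p could be assigned to either, so their separate zeros are uncertain, while neither was above 1 read.

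The most abundant hairpins with a strand at 0 were those of miR-146a and miR-24. miR-146a-5p, a strand induced by innate immune signalling that targets TRAF6 and IRAK1, was at 24346, 27494 and 20011 CPM in HQ replicates 1 to 3, against 28118, 24455 and 27407 CPM in LQ replicates 1 to 3. The groups overlapped and miR-146a-3p was at 0 in each library. miR-24-3p, from the cluster of miR-23, miR-27 and miR-24, was at 20235, 23601 and 19524 CPM in HQ, against 15050, 17372 and 15594 CPM in LQ. Here all 3 HQ libraries were above all 3 LQ libraries. With 307553 implied reads of miR-146a-5p and none of miR-146a-3p, the limit on the minor strand (3 reads) was 0.000975% of the pair. The same limit for miR-24-2-5p was 0.00132%. miR-24-3p is cut from a hairpin on chromosome 2 as well as from that on chromosome 10, so its limit holds for both hairpins together.

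The next 4 hairpins had a present strand between 163 and 1038 CPM. miR-221-3p, which represses the cell cycle inhibitor p27, was at 662, 1038 and 674 CPM in HQ, against 607, 849 and 707 CPM in LQ, with overlapping groups. miR-381-3p, from the imprinted DLK1-DIO3 region, was at 591, 474 and 614 CPM in HQ, against 696, 609 and 620 CPM in LQ, and HQ replicate 3 lay within the LQ range. miR-130b-3p, of the miR-130 and miR-301 seed family, was at 244, 302 and 348 CPM in HQ, against 340, 378 and 466 CPM in LQ, where the highest HQ value passed the lowest LQ value. None of these 3 separated the groups. miR-92b-3p, which has the seed of the miR-17-92 cluster member miR-92a, was at 299, 459 and 370 CPM in HQ, against 235, 269 and 163 CPM in LQ, and every HQ library was above every LQ library. The limits on the strands at 0 were 0.0319% for miR-221-5p, 0.0419% for miR-381-5p, 0.0696% for miR-130b-5p and 0.0834% for miR-92b-5p.

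A further 5 strands had partners between 33.3 and 201 CPM, and in these 5 the groups did not overlap, beside 43.7% of all tested miRNAs and 8 of the 15 other arms. miR-218-5p, known from motor neurons and borne by the SLIT genes, was at 102, 76.1 and 104 CPM in HQ, against 130, 196 and 201 CPM in LQ. miR-499-5p, a strand of slow and cardiac muscle, was at 67.6, 81.0 and 115 CPM in HQ, against 119, 168 and 143 CPM in LQ. In both pairs all LQ libraries were above all HQ libraries, although HQ replicate 3 and LQ replicate 1 nearly met for miR-499-5p. miR-1839-5p had the same order, with 33.3, 39.1 and 50.2 CPM in HQ, against 55.3, 54.2 and 62.7 CPM in LQ. The opposite order was seen for miR-1296-5p, at 75.6, 78.3 and 91.3 CPM in HQ, against 66.3, 57.8 and 55.2 CPM in LQ, and for miR-155-5p, a strand of activated lymphocytes and macrophages, at 61.5, 69.8 and 58.8 CPM in HQ, against 45.4, 42.3 and 44.3 CPM in LQ. For the strands at 0 the limits were 0.175% (miR-218-3p), 0.210% (miR-499-3p), 0.355% (miR-1296-3p), 0.459% (miR-155-3p) and 0.501% (miR-1839-3p).

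The last 4 hairpins were sparser, with present strands of at most 44.6 CPM. miR-194a-5p, which is co-transcribed with miR-192 and typical of gut and liver epithelium, was at 19.7, 20.9 and 24.0 CPM in HQ, against 29.5, 43.2 and 44.6 CPM in LQ, without overlap. miR-432-5p of the DLK1-DIO3 region was at 12.7, 12.9 and 14.8 CPM in HQ, against 13.5, 9.70 and 18.1 CPM in LQ, with HQ inside the LQ range. miR-582-3p, from an intron of PDE4D, was at 2.35, 4.003 and 3.42 CPM in HQ, against 6.14, 3.53 and 3.41 CPM in LQ. The groups overlapped again. miR-194b-5p was at 2.82, 1.33 and 3.42 CPM in HQ and at 0, 0.882 and 2.04 CPM in LQ, values of a few reads in each library. The limits were 0.781% for miR-194a-3p, 1.79% for miR-432-3p, 6.98% for miR-582-5p and 13.0% for miR-194b-3p.

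**Figure D1:**
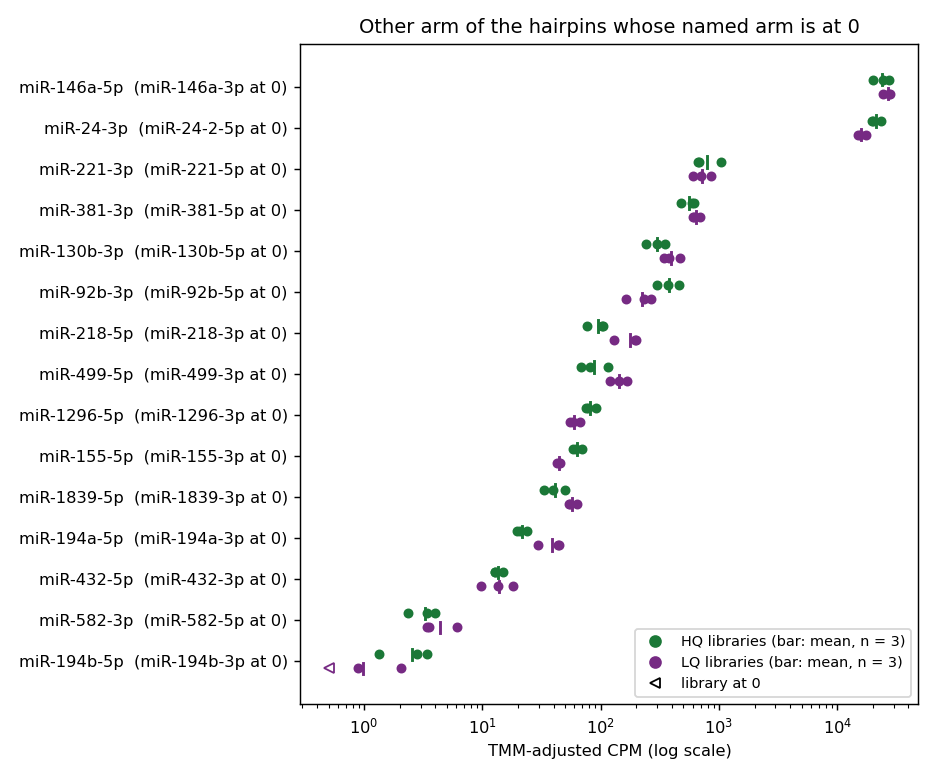
TMM-adjusted CPM (log axis) of the present arm of the 15 hairpins whose named arm was at 0 in all 6 libraries, with one point per library for HQ (above) and LQ (below), a bar at each group mean, and an open triangle for a library at 0. The partners span from miR-146a-5p at 20011 to 28118 CPM, to miR-194b-5p, at 0 in LQ replicate 1.

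The 15 pairs were set beside the other hairpins of the table that had both arms named. Of 90 such pairs among let-7 and miRNAs below 4000, 75 had both arms above 0, and in these the minor arm held 0.000827% to 49.1% of the pair's implied reads, with a median of 2.35%. The major arm of these 75 pairs had a median of 6416 implied reads, against 1427 for the 15 pairs with a member, so hairpins with a member were less abundant on the whole. Of the 62 pairs with at least 1000 reads of the major arm, 8 had a member, and of the 14 pairs with at least 100000 reads, 2 had one. Of the 75 measured minor shares, 2 were below the limit of miR-146a-3p, and 2 below that of miR-24-2-5p. In both cases these were miR-27b-5p, with 13 implied reads beside 1572305 of miR-27b-3p (0.000827%), and miR-24-1-5p, with 2 beside 227803 of miR-24-3p (0.000878%). The last shares its major arm with miR-24-2-5p, so the 90 pairs are not all independent. miR-29a-5p, with 25 implied reads beside 1067840 of miR-29a-3p (0.00234%), came next. All 75 minor arms were above 0, so a share this low could arise only beside a very abundant major arm. Most of the 75 pairs could not fall below the limits of miR-146a-3p and miR-24-2-5p. The counts therefore do not show how unusual these zeros are. At the sparse end, 51 of the 75 measured shares were below the limit of miR-582-5p and 59 below that of miR-194b-3p, and a minor arm of the usual share could have been missed at this depth.

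**Figure D2:**
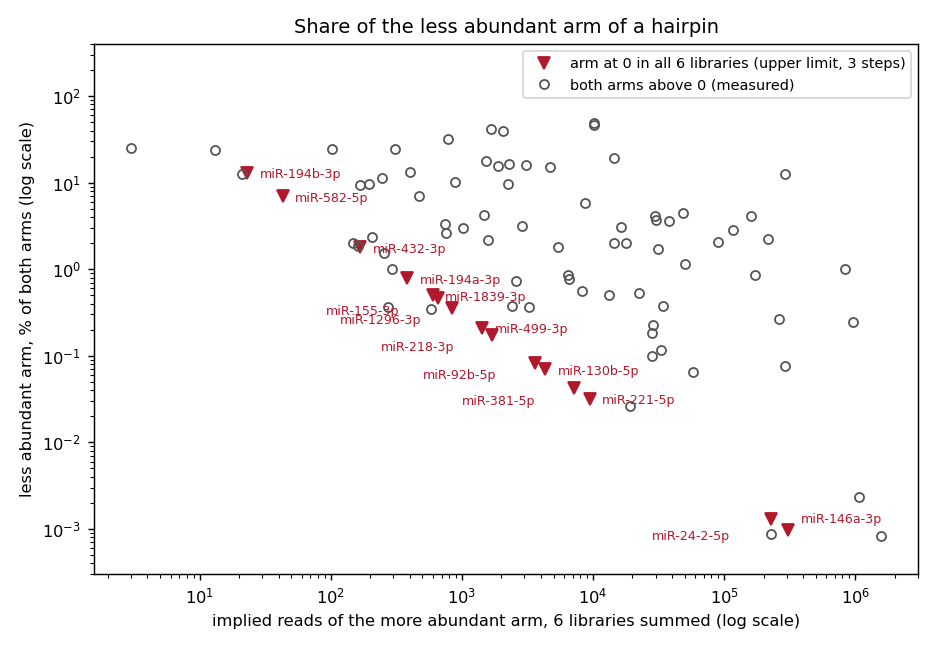
Share of the less abundant arm in the implied reads of both arms (vertical, %, log axis) against the implied reads of the more abundant arm over 6 libraries (horizontal, log axis). Circles are the 75 pairs with both arms above 0, and triangles are the upper limits (3 reads) of the 15 pairs with an arm at 0, which lie on a line by construction. The limits of miR-146a-3p and miR-24-2-5p are near 0.001%, with the measured share of miR-27b-5p.

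Whether the partners of the absent strands differed with oocyte quality was tested with limma on log2(CPM + 0.5) over the 309 expressed miRNAs. Fold changes are HQ over LQ. Of the 15 other arms, 1 was higher in HQ at an adjusted p under 0.05 and 2 were higher in LQ, beside 11.7% and 14.9% of all tested miRNAs. Including 9 further relatives, 24 in all, 1 was higher in HQ and 4 in LQ, with a median log2 fold change of -0.12, against 0.08 over all 309. At the study's thresholds (adjusted p under 0.05, at least a 2-fold change and more than 5 CPM on average in the group with more), 1 of the 24 passed, beside 12.6% of all tested. The groups did not overlap for 10 of the 24 and for 8 of the 15 other arms, beside 43.7% of all tested. None of these counts sets the partners apart from the table as a whole, and such a difference was not tested.

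miR-92b-3p was higher in HQ, at 376 ± 80.4 CPM against 222 ± 53.8 CPM in LQ (SD, n = 3 each), a log2 difference of 0.77 (standard error 0.261, adjusted p = 0.0367 by the limma test). miR-92a, with the same seed, was at 4597 ± 409 CPM in HQ, against 3780 ± 571 CPM in LQ and did not pass (0.29, adjusted p = 0.303 from limma). The miR-218 seed went the other way. miR-218-5p was higher in LQ, at 94.3 ± 15.8 CPM in HQ against 176 ± 39.5 CPM in LQ (log2 fold change -0.88, standard error 0.265, adjusted p = 0.0196 by the limma test). miR-218b, at 12.7, 10.2 and 15.4 CPM in HQ, against 25.8, 24.7 and 30.7 CPM in LQ, was the one relative past the study's thresholds (-1.07, standard error 0.327, adjusted p = 0.0213 from limma). Its annotated sequence is that of miR-218-5p with 1 further base at the 3′ end, so the 2 rows may divide the reads of one strand, and the level of each alone is uncertain.

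miR-194a-5p was higher in LQ, at 21.5 ± 2.199 CPM in HQ, against 39.1 ± 8.37 CPM in LQ (SD, n = 3 each), a log2 difference of -0.83 (standard error 0.302, adjusted p = 0.0493 by the limma test). miR-130a, which has the seed of miR-130b-3p, was at 3642, 3590 and 5786 CPM in HQ, against 5857, 6697 and 6789 CPM in LQ (-0.61, standard error 0.220, adjusted p = 0.0493 from limma). HQ replicate 3 was close to the lowest LQ value. None of these 5 calls remained without HQ replicate 2, without LQ replicate 2 or without LQ replicate 3, where the adjusted p from limma was 0.0528 to 0.206. Without a trend in the variance prior only miR-218b passed, and the other 4 had adjusted p from 0.0674 to 0.150 by limma. Without HQ replicate 1, miR-218b, miR-194a-5p and miR-130a did not pass, and without HQ replicate 3, miR-92b-3p and miR-194a-5p did not. The calls of miR-194a-5p and miR-130a, at the threshold, also ended with a pseudocount of 0.1 (limma adjusted p of 0.0506 and 0.0541) and with all miRNAs above 0 tested (0.0899 and 0.0587). With every library brought to the same total CPM, the 4 miRNAs higher in LQ did not pass, and miR-24-3p passed as higher in HQ (adjusted p = 0.0246, against 0.114 with the values as deposited).

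The partners that did not pass had log2 fold changes from -1.03 for miR-450b-3p to 1.25 for miR-194b-5p, both of a few CPM. For miR-146a-5p it was -0.16 (95% interval -0.55 to 0.22, adjusted p = 0.549 from limma), for miR-221-3p 0.12 (adjusted p = 0.771 from limma) and for miR-155-5p 0.52 (adjusted p = 0.146 from limma). miR-499-5p was near the threshold at -0.73 (adjusted p = 0.0526 from limma). It passed as higher in LQ with only miRNAs above 5 CPM tested (0.0427), with the replicate number as a block (0.0301), without HQ replicate 3 (0.0253) and without LQ replicate 1 (0.0262), and its adjusted p from limma over all alternatives was 0.0253 to 0.216. A limma p above the threshold does not show that the groups were alike.

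**Figure D3:**
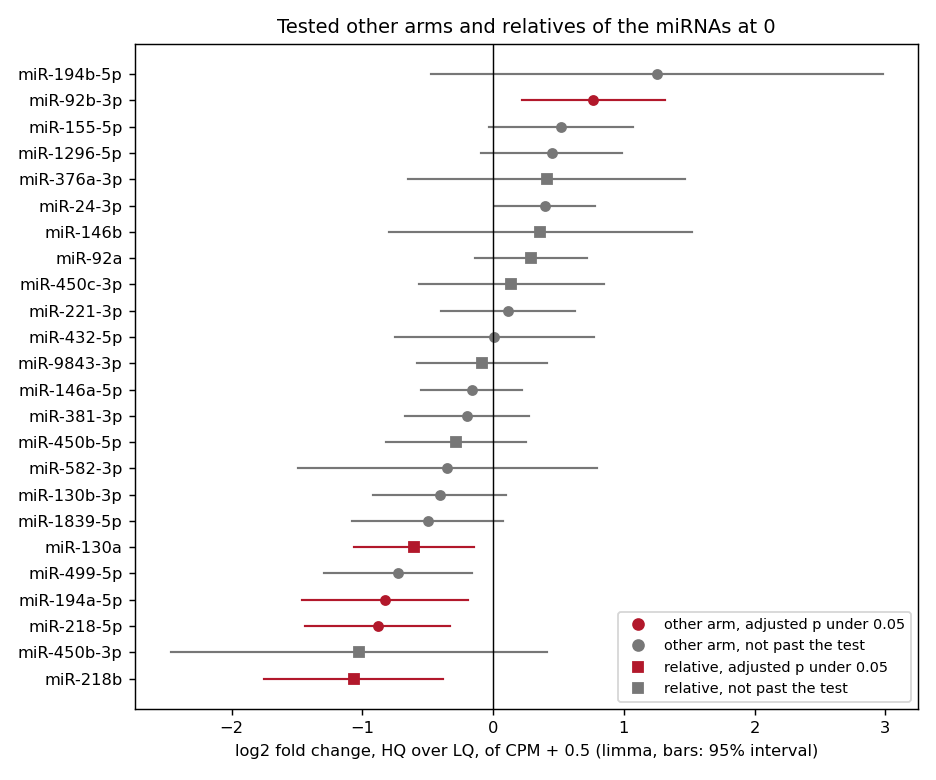
Log2 fold change (HQ over LQ, CPM + 0.5) from limma with its 95% interval for 24 tested other arms (circles) and relatives (squares) of the miRNAs at 0, red where the adjusted p was under 0.05. The 5 red points are miR-92b-3p, higher in HQ, and miR-218b, miR-218-5p, miR-194a-5p and miR-130a, higher in LQ.

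Of the 10 members named without an arm, miR-450a had the most present neighbours. Within 10000 bp on the X chromosome, in the cluster of miR-424, miR-503, miR-542 and the miR-450 genes, miR-542-3p was at 124 ± 24.5 CPM in HQ, against 213 ± 26.4 CPM in LQ, and miR-542-5p at 104 ± 7.82 CPM in HQ, against 108 ± 30.3 CPM in LQ (SD, n = 3 each). miR-450b-5p, 172 bp downstream of the miR-450a hairpin, was at 98.6, 114 and 140 CPM in HQ, against 136, 170 and 123 CPM in LQ. Its groups overlapped, and it was at 98.6 CPM or more in each library, while miR-450a was at 0. The hairpin of miR-450c, 133 bp upstream, gave its 3p strand at 16.0, 22.2 and 34.8 CPM in HQ, against 19.7, 21.2 and 22.1 CPM in LQ, while its 5p strand, the near-copy of miR-450a, held 1 implied read.

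miR-452 lies in an intron of GABRE, a GABA receptor subunit gene, at chrX:123284528-123284549 on the minus strand, 1052 bp from miR-224, a miRNA known from granulosa cells of mice. miR-224 was low and even, at 10.8, 10.7 and 7.99 CPM in HQ, against 8.60, 10.6 and 11.2 CPM in LQ. Among the arm pair members, miR-24-2-5p also had the major arm of a neighbouring hairpin present. miR-27b-3p, 546 bp away, was at 102691 ± 8347 CPM in HQ, against 155626 ± 8550 CPM in LQ (SD, n = 3 each). The 5p arm of that hairpin, miR-27b-5p, was at only 1.39 ± 1.22 CPM in HQ, against 1.78 ± 2.72 CPM in LQ. miR-23b was at 1020 ± 210 CPM in HQ, against 563 ± 145 CPM in LQ. miR-192, 203 bp from miR-194a-3p, was at 2442 ± 201 CPM in HQ, against 2824 ± 154 CPM in LQ. miR-215, 295 bp from miR-194b-3p, was at 363 ± 107 CPM in HQ, against 406 ± 53.1 CPM in LQ. The miR-194 strands were thus the rare products of both loci.

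miR-222, next to miR-221 on the X chromosome and with the same seed as miR-221-3p, was much rarer than that strand, at 6.95 ± 1.71 CPM in HQ, against 5.50 ± 1.78 CPM in LQ (SD, n = 3 each). At miR-432-3p, the neighbours miR-127 and miR-136-3p were at 17.6 ± 1.12 and 18.3 ± 4.08 CPM in HQ, against 27.5 ± 5.30 and 28.0 ± 11.03 CPM in LQ. The other strand of miR-136 was almost missing as well, with miR-136-5p above 0 only in LQ replicate 3 (3 implied reads).

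**Figure D4:**
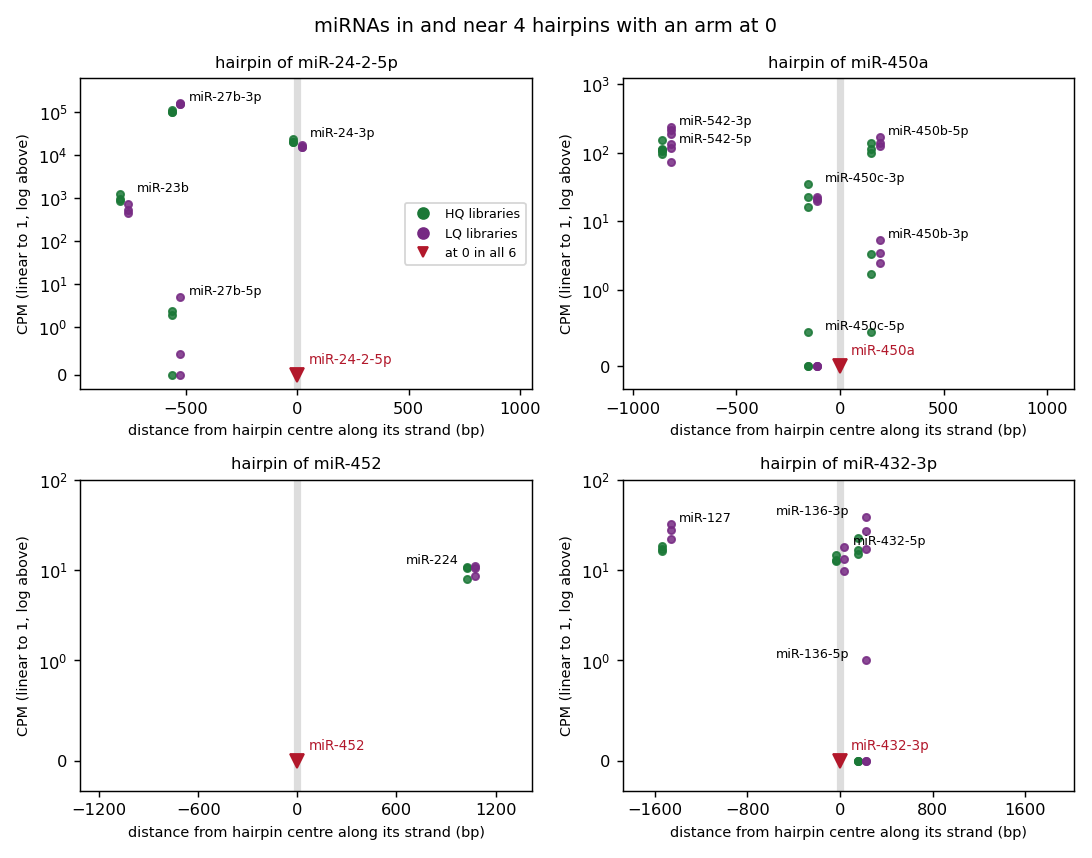
TMM-adjusted CPM (linear up to 1, log above) of miRNAs in and near 4 hairpins with a strand at 0, by distance in bp from the hairpin's centre along its strand, with one point per library (HQ left of LQ) and a red triangle for the strand at 0. Beside miR-24-2-5p at 0, miR-27b-3p averaged 102691 CPM in HQ and 155626 CPM in LQ, but its other arm, miR-27b-5p, averaged only 1.39 and 1.78 CPM. Beside miR-450a at 0, miR-450b-5p was at 98.6 CPM or more in each library.

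Of the other members without an arm, miR-376b, miR-411 and miR-494 belong in human and mouse to the DLK1-DIO3 cluster, which is expressed from the maternal chromosome in placental mammals. The relatives of miR-376b were low or sparse, with miR-376a-3p at 18.3, 11.6 and 18.8 CPM in HQ, against 3.68, 21.2 and 20.1 CPM in LQ, where LQ replicate 1 alone was low. miR-1224 is known in other mammals as a mirtron, a hairpin cut out by splicing, and lies at chr13:122141120-122141139 on the plus strand, where the annotation has no host gene. miR-325, at chrX:61213902-61213924 on the minus strand, lies in no annotated gene. miR-484 is named only.

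Lists of miRNAs known for a tissue or a locus were counted over the miRNAs that the table holds. Families with no entry in the table were not analysed here: entries were found for 1 of 10 embryonic families, 14 of 18 neural, 5 of 7 leukocyte, 5 of 6 gut and kidney and 5 of 5 striated muscle families, and for 15 of 42 families of the DLK1-DIO3 and 29 of 46 of the X-linked list. The 1 miRNA of the embryonic stem cell families, miR-371-5p, was present at 410, 656 and 469 CPM in HQ, against 334, 407 and 394 CPM in LQ. The lowest HQ value was just above the highest LQ value, and the difference did not pass (log2 fold change 0.41, adjusted p = 0.219 by the limma test). Of 20 neural miRNAs, 15 were expressed, 4 were above 0 with means of at most 1 CPM and 1, miR-218-3p, was at 0. Of 8 striated muscle miRNAs, 7 were expressed and miR-499-3p was at 0. Of 9 leukocyte miRNAs, 7 were expressed and miR-146a-3p and miR-155-3p were at 0, and of 10 gut and kidney miRNAs, 7 were expressed, 1 was low and miR-194a-3p and miR-194b-3p were at 0. Every zero in these 4 lists was thus a second strand of a hairpin whose other strand was in the table above 0. The sensory and eye (5), liver (4), pancreas and endocrine (5), epithelial (4), erythroid (3), Hox (7) and gonad and granulosa (17) lists had no miRNA at 0.

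Low levels, rather than zeros, marked the tissue miRNAs closest to absence. miR-124a, the classical neuronal miRNA, was above 0 only in LQ replicate 3 (1.02 CPM, 3 implied reads), and miR-216, of the exocrine pancreas, only in LQ replicate 2 (0.441 CPM, 1 implied read). miR-144, of erythroid cells, and miR-383, of granulosa cells and brain, had 6 implied reads each, and miR-217 had 4. Most miRNAs of the same lists were expressed. These were 2 of 3 erythroid, 3 of 5 pancreas and endocrine, and 16 of 17 gonad and granulosa miRNAs. The erythroid miR-486 averaged 126 CPM in HQ, against 65.5 CPM in LQ. The rest of the erythroid list went the other way. miR-451 averaged 6.22 CPM in HQ, against 15.1 CPM in LQ, and the few reads of miR-144 were in LQ replicates 2 and 3 only. miR-7-5p of the pancreas list averaged 179 CPM in HQ, against 192 CPM in LQ. The liver miRNA miR-122-5p was at 391 ± 51.8 CPM in HQ, against 601 ± 196 CPM in LQ (SD, n = 3 each), and did not pass (adjusted p = 0.103 from limma). The other liver miRNAs had the opposite order. miR-885-5p was at 32.4, 22.2 and 38.2 CPM in HQ, against 6.14, 11.9 and 12.9 CPM in LQ. miR-122-3p averaged 5.24 CPM in HQ, against 3.62 CPM in LQ, and miR-885-3p was above 0 only in HQ replicates 2 and 3.

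Apart from miR-1224 and miR-484, the members named without an arm fell into 2 locus lists. Of 22 DLK1-DIO3 miRNAs, 10 were expressed, 7 were low and 5 were at 0 (miR-376b, miR-381-5p, miR-411, miR-432-3p and miR-494). Of 46 miRNAs in X-linked clusters, 38 were expressed, 2 were low and 6 were at 0 (miR-105-1, miR-105-2, miR-221-5p, miR-325, miR-450a and miR-452). Of these 11, 3 were second strands with a partner present. The members in none of the lists were miR-1224, miR-1296-3p, miR-130b-5p, miR-1839-3p, miR-24-2-5p, miR-484, miR-582-5p and miR-92b-5p.

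**Figure D5:**
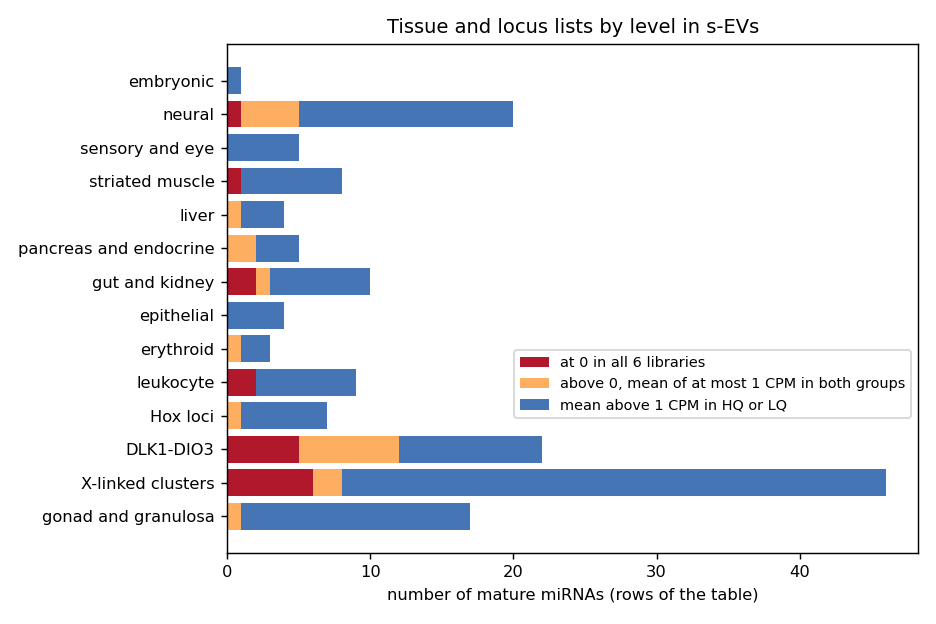
Number of mature miRNAs of each tissue or locus list that were at 0 in all 6 libraries (red), above 0 with a mean of at most 1 CPM in both groups (orange), or expressed (blue). The DLK1-DIO3 list had 5 of 22 at 0 and the X-linked list 6 of 46, while the embryonic list was a single expressed miRNA.

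The 18 members with a mature sequence were set beside the 245 other miRNAs below 4000 with one. Median length was 22 bases in both (20 to 26 in the members and 19 to 26 in the rest), and median GC content was 45.0% in the members and 47.6% in the rest. A first base of U was found in 5 members (27.8%) and in 117 of the rest (47.8%). A first base of A was found in 7 members (38.9%), against 64 of the rest (26.1%). On the X chromosome lay 6 of the 18 (33.3%), both copies of miR-105 among them, and 37 of the rest (15.1%). miRNAs without a mature sequence are in neither count. Of the members, these include miR-130b-5p, miR-194a-3p and miR-582-5p, whose hairpins lie on chromosomes 14, 2 and 16. Of 11 hairpins with both strands annotated, the present strand began with U in 9 (81.8%) and the strand at 0 in 2 (18.2%). In the 55 hairpins with both arms above 0 the major arm began with U in 31 (56.4%) and the minor arm in 10 (18.2%). The strands at 0 and the detected minor arms thus began with U at the same share. These shares are descriptions without a test.

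At the edge of the rule, the member with the highest number was miR-1839-3p and the first miRNA at 0 beyond the limit was miR-4334-5p, with no miRNA of the table numbered between 3613 and 4331. Above 0 in exactly 1 library were 11 miRNAs below 4000, each with 1 to 3 implied reads. These were miR-124a and miR-136-5p (LQ replicate 3), miR-1249, miR-216, miR-24-1-5p, miR-487b and miR-490-3p (LQ replicate 2), miR-18b and miR-450c-5p (HQ replicate 2) and miR-33b-3p and miR-758 (HQ replicate 1). None was above 0 in LQ replicate 1, the shallowest library, or in HQ replicate 3, the second shallowest.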

How the data were processed

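The data are 6 small-RNA libraries of porcine follicular fluid s-EVs, 3 HQ and 3 LQ. The authors used CLC Genomics Workbench 21, by the paper's methods, to map trimmed reads to Sscrofa11.1 with miRBase 22 as annotation. Bowtie2 2.2.2, bcl2fastq and DESeq2 are named in the processing notes of the submitters, and which tool made the final table is not settled. The deposited table gives 453 miRNAs as a signal in each library, TMM-adjusted CPM.

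Samples were grouped by the oocyte quality of the labels. Within a library, values were whole multiples of the lowest one above 0 (largest deviation 6.66e-05 of that step). The step was read as 1 read for depths, limits and the shares of hairpin arms. Too few low values were present for it to be accepted as recovered reads, so no count test was run. Whether molecular identifiers were used to collapse reads is not given in the sources. The 309 miRNAs that averaged more than 1 CPM in HQ or LQ were tested with limma 3.58.1 (R 4.3.3) on log2(CPM + 0.5). The test was two-sided, the variance prior had a trend with intensity, and p-values were adjusted by Benjamini-Hochberg. The pseudocount of 0.5 draws fold changes of low miRNAs toward 0. The test was tried on simulated data. Replicates are separate pools of fluid, and p-values set the difference between the groups against the spread between pools, as moderated by the variance prior.

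Sequences, positions and host genes came from the RefSeq annotation of Sscrofa11.1, read with pysam 0.24.0, with a mature sequence for 367 of the 453 miRNAs. Distances between sequences are edit distances, and neighbours lie within 10000 bp on the same strand. All members were named, with their other arms, miRNAs of the same seed or family name, and neighbours. Members and lists were chosen with earlier results of these data known. Alternatives were the pseudocount, the filter, the variance prior, equal library sums, the replicate number as a block, leaving out each library, and other limits for the members. Plots were made in Python 3.11.15 by matplotlib 3.10.9.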

Additional observations from a re-analysis of the deposited data

How the results depend on the processing

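The number of miRNAs at 0 was 25. It was 22 with numbers below 1000, 25 below 2000 and 30 with at most 1 implied read in all. With a mean of at most 0.5 CPM in both groups it was 42. When only the HQ libraries had to be at 0, whatever the LQ values, it was 35. When only the LQ libraries had to be at 0, it was 30. Both counts include the 25. With a library left out it was 25 to 30. Of all 309 miRNAs, 82 had an adjusted p under 0.05 from limma, against 29 without a trend in the variance prior and 29 to 109 with one library left out (29 without HQ replicate 2, 46 without LQ replicate 2 and 48 without HQ replicate 1). At the study's thresholds 16 were higher in HQ (10 without the trend, 31 with equal sums, 7 to 23 with one library left out) and 23 higher in LQ (14, 12 and 15 to 33). With equal sums the median log2 fold change was 0.25, against 0.08 (a median shift of 0.20 per miRNA), and there were 60 calls higher in HQ and 27 higher in LQ, or 69.0% in HQ, against 36 and 46, or 43.9%. Of the 24 other arms and relatives 5 passed, but 3 with a pseudocount of 0.1, 3 with all miRNAs above 0 tested, 1 without the trend, 2 with equal sums and 0 to 6 with one library left out. Of the 15 other arms 3 passed, against 0 without the trend and 0 to 4 with one library left out. The cause of these changes was not tested.

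With the replicate number as a replicate block, 97 miRNAs had an adjusted p under 0.05, with 18 higher in HQ and 26 higher in LQ at the study's thresholds, 6 of the 24 and 4 of the 15. Deviations of same-numbered libraries from their group means had correlations of -0.00522, -0.0125 and -0.0360, which show no shared deviation by number. With 3 libraries in each group, these values cannot settle whether the pools were collected in pairs. The labels do not state it. Log2 fold changes of single relatives that turned sign were those of miR-146a-5p (0.033) and miR-9843-3p (0.11) with equal sums. With one library left out they ran from -0.10 to 0.24 for miR-221-3p (below 0 without HQ replicate 2 and without LQ replicate 1), from -0.37 to 0.82 for miR-376a-3p (below 0 without LQ replicate 1), from -0.21 to 0.22 for miR-432-5p (below 0 without HQ replicate 3 and without LQ replicate 2), from -0.15 to 0.40 for miR-450c-3p (below 0 without HQ replicate 3) and from -0.21 to 0.11 for miR-9843-3p (above 0 without LQ replicate 1). None of these was past the test. The depth of 898530 to 3159116 implied reads a library limits every zero to a bound, and for miR-582-5p and miR-194b-3p that bound is no lower than usual minor arm shares.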

Other observations

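Beyond the conserved miRNAs, zeros were more frequent among miRNAs with numbers from 4000, most of which were annotated later from sequencing. Of these 123 miRNAs, 83 (67.5%) were at 0 in all 6 libraries, 10 were above 0 with a mean of at most 1 CPM in both groups and 30 were expressed. Among all 453 miRNAs, 108 (23.8%) were at 0. One of the expressed late miRNAs, miR-9843-3p, carries the seed of the absent miR-146a-3p, and was at 700 ± 68.1 CPM in HQ, against 754 ± 186 CPM in LQ (SD, n = 3 each, log2 fold change -0.09, adjusted p = 0.830 from limma).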
